A study of Mus musculus with 2 samples.

Results

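Ogt and 7 genes around it were read on 2 Affymetrix arrays labelled as mouse embryonic stem (ES) cells, 1 as control KD and 1 as TET2 KD. Markers on the arrays go in part against the ES cell label, as given below. The 7 are Hcfc1 and Sin3a, which encode chromatin partners of the OGT enzyme, and Gfpt1, Gfpt2, Gnpnat1, Pgm3 and Uap1, which encode the enzymes that make its sugar donor. They were chosen by name, but with earlier results of these data known. A probe set was taken where the platform annotation gives it exactly 1 gene symbol and that symbol is one of the 8. This found 24 of the 28898 probe sets with 1 symbol, and 8 of 17097 genes.

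Per the labels, the cells were of strain C57BL/6 and were grown without feeders on gelatin, with serum and leukaemia inhibitory factor. Lentivirus brought in a U6-driven hairpin, scrambled in the group called control KD and directed at Tet2 in the group called TET2 KD, and both groups were kept in puromycin for 72 hours. Whether a clone or a pool of infected cells was used is not given in the sources used here. There was 1 array per group, so no difference below has an error or a test, and precision is limited by that number. Values are the authors' deposited signals, taken as log2. Each difference is the value in the library labelled TET2 KD less that in the library labelled control KD. A gene or probe set is called at or above the floor, defined below, by its mean over both arrays unless single arrays are named.

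OGT adds a single N-acetylglucosamine (O-GlcNAc) to serines and threonines of nuclear and cytosolic proteins, and OGA removes it. The donor, UDP-GlcNAc, comes from the hexosamine pathway, which branches off glycolysis at fructose-6-phosphate, so the mark follows the supply of glucose and glutamine. OGT binds TET2 and TET3 at promoters rich in CpG, cuts and glycosylates the coregulator HCF1, and is recruited by the corepressor SIN3A. In ES cells OGT is required for viability.

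The labels were read against Tet2 and cell markers first. Tet2 did not separate the arrays by 2-fold, at 5.62 in the library labelled control KD and 5.57 in the library labelled TET2 KD in its brighter probe set, and 5.48 and 5.22 in the other. The samples are therefore called by their labels, and no direction below is assigned to a loss of Tet2. Of 14 ES cell markers measured, 10 reached the floor on both arrays and 4, Pou5f1 and Nanog among them, were under it on both. Pou5f1 read 1.07 in the library labelled control KD and 1.29 in the library labelled TET2 KD, and Nanog 1.01 and 0.97, while Zfp42, another marker of undifferentiated cells, read 10.56 and 10.58. The other markers that reached the floor ran from Dppa5a, at 2.64 and 2.56, to Utf1, at 9.22 and 9.22. Among them Sall4 read 8.73 and 8.75, Dppa4 8.64 and 8.45, Nr0b1 8.01 and 7.80, and Sox2 7.09 and 6.98. The floor, 2.55, is the median value of the table with control probe sets left out. Markers of other cells were read on both arrays as well, with 6 of 7 neuronal, 6 of 6 oligodendrocyte, 4 of 5 astrocyte and 4 of 7 fibroblast genes reaching the floor on both. Of all 17097 genes, 10936 reached it on both, so these counts alone do not mark a cell type. The neuronal Stmn2 read 10.34 and 10.35 and Mbp, a myelin protein, 10.32 and 10.22. These are the brightest of their lists. The other neuronal genes ran from Snap25, at 2.51 and 2.26, to Nefl, at 9.40 and 9.50. The other oligodendrocyte genes ran from Cldn11, at 2.93 and 3.09, to Mobp, at 7.59 and 7.52. The markers thus point both ways, with Zfp42, Utf1, Sall4 and Dppa4 bright but Pou5f1 and Nanog under the floor and Stmn2 and Mbp far above it. The ES cell label is therefore in doubt on both arrays. It is used here only as a label. Of these lists only the ES cell marker Klf4 (1.01) was past 2-fold with both values at or above the floor, and the fibroblast gene Lox, at 3.52 and 2.34, was at least 1.95-fold lower against the floor. Of 7 pituitary genes the 4 with a mean at or above the floor all stood lower, past 2-fold, in the library labelled TET2 KD (Prl, Gh, Pomc and Fshb, median difference -5.39). Cga, a common alpha subunit of pituitary hormones, was higher instead (1.29 and 2.80, at least 1.19-fold against the floor). The summed signal of all 7 was 11.81 on the log2 scale in the library labelled control KD and 6.04 in the other. In RNA from bulk samples, fewer cells of a type and less RNA per cell cannot be told apart. The part of these differences between the samples in the values below was not tested.

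Promoters of 3 genes are shown because OGT and TET proteins are known to meet at CpG-rich promoters, and because the genes here span that property. RefSeq sequence (GRCm38.p6) was found for 7 of the 8 genes, with 9 start sites in all, and the 250 bases before each start were counted. DNA methylation was not measured here. The lines below give Ogt (chrX:101639801-101640050, plus strand, the first of its 2 starts), Gfpt1 (chr6:87042596-87042845, plus strand) and Gfpt2 (chr11:49793905-49794154, plus strand), 5′ to 3′, with each CpG in capitals.
Ogt: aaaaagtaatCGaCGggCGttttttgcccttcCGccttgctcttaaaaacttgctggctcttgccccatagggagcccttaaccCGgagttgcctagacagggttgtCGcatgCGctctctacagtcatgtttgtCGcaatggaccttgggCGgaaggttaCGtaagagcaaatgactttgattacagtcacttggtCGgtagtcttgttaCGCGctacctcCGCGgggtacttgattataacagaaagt
Gfpt1: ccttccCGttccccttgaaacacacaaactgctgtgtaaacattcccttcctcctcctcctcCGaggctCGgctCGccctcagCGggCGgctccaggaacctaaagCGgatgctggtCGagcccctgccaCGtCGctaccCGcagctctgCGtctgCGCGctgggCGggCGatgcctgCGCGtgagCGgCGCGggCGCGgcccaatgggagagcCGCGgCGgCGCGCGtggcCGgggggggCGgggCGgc
Gfpt2: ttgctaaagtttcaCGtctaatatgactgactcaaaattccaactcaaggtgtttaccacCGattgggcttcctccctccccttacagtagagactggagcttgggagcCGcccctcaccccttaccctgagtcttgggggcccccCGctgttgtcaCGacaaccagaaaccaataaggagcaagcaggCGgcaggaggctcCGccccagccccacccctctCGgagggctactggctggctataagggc

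The Gfpt1 window held 32 CpGs, the most of the 9, and only 4.58% of 32851 mouse promoter windows of this length held as many or more. Its paralog Gfpt2, which catalyses the same reaction, had 8 CpGs, the fewest of the 9, near the median of 6 over all windows. Ogt lay between with 15 at its first start and 13 at its second, counts reached by 27.3% and 31.5% of windows. Pgm3 had 28, Uap1 22, Hcfc1 19, and the Sin3a starts 12 and 19. The Sp1 box GGGCGG, on either strand, was in all 9 windows and in 32.7% of all windows. The ETS motif CCGGAAG was in the Hcfc1 and Pgm3 windows and in 6.91% of all. None of the 9 windows held TGACGTCA (cAMP response element, 1.55% of all windows), TGACGTGG (unfolded protein response element, 0.563%) or CACGTG (E box, 6.02%), on either strand. The response elements share the letters TGACGT. A match is only a match of letters.

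Ogt, the O-GlcNAc transferase itself, read nearly alike on both arrays. Its brightest probe set, 1425517_PM_s_at, read 5.74 in the library labelled control KD and 5.78 in the library labelled TET2 KD, which is 0.04 higher (103.1% of the level in the control). The next, 1425516_PM_at, read 5.23 and 5.35, a difference of 0.13. The largest of its differences was that of 1436780_PM_at, at 4.29 and 4.54 (0.25, or 118.6%). The dimmest, 1451738_PM_at, read 2.85 and 2.81, a difference of -0.05, and lay near the floor. All 4 reached the floor on both arrays, and 3 of 4 were higher in the library labelled TET2 KD. Differences of 0.25 or more in either direction, that of the third, were seen in 18.6% of the 22537 probe sets with a mean at or above the floor, so the Ogt values lie inside the ordinary spread of these arrays.

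**Figure D1:**
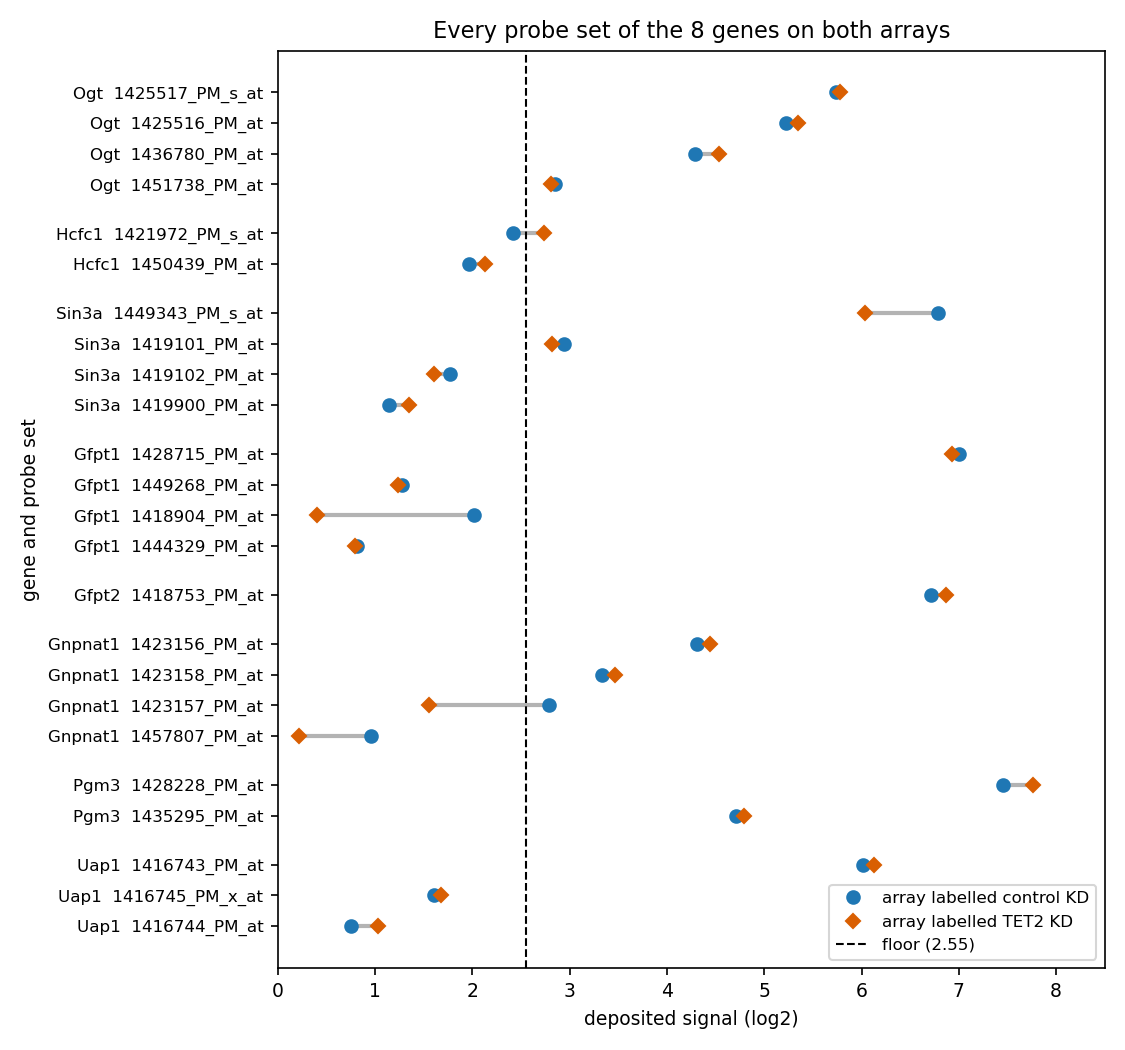
Deposited log2 signal (x axis) of each of the 24 probe sets of the 8 genes (y axis, grouped by gene, brightest first) in the library labelled control KD (circles) and the library labelled TET2 KD (diamonds), with 1 array per group and a dashed line at the floor of 2.55. The Ogt pairs nearly coincide, while Sin3a 1449343_PM_s_at reads 6.79 and 6.04 and Gnpnat1 1423157_PM_at reads 2.79 and 1.56, across the floor.

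By the rule set for the purpose, the genes nearest to Ogt over both arrays were Aimp2 (5.74 and 5.79), Smarcal1 (5.74 and 5.78) and F3 (5.73 and 5.78), at distances of 0.0056, 0.0072 and 0.0086. With 2 arrays this likeness is weak, since 191 genes lay within a distance of 0.1 of Ogt.

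Ogt and Hcfc1 lie on the X chromosome, and the arrays differed in sex-linked RNA. Xist, the RNA of the inactive X, read 9.34 in the library labelled control KD and 3.62 in the library labelled TET2 KD, and the Y-linked Eif2s3y read 0.89 and 6.14. The Y-linked Kdm5d read 1.03 and 4.52 in its brightest probe set, but Uty, also Y-linked, was under the floor on both, at 1.29 and 1.34. Probe sets did not all agree in size, with differences from 1.02 to 5.25 for Eif2s3y and from 0.03 to 3.49 for Kdm5d. Of 15 other X-linked genes measured, such as Hprt and Pgk1, 0 were past 2-fold, 6 were higher and 9 lower, and the median difference was -0.07. Over all genes at or above the floor, 1.17% were past 2-fold upward and 1.41% downward, and 47.4% were higher. The Ogt difference of 0.04 in its brightest probe set lies within their range of -0.32 to 0.24, and the Hcfc1 difference given next lies above it. The part of the sex-linked difference in either was not tested.

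Hcfc1, the host cell factor that OGT both glycosylates and cleaves, was close to the floor on both arrays. Its brighter probe set, 1421972_PM_s_at, read 2.42 in the library labelled control KD, under the floor, and 2.73 in the library labelled TET2 KD, just above it. Measured as it stands the difference was 0.32, and against the floor it was at least 1.13-fold higher. The other, 1450439_PM_at, read 1.96 and 2.12 (0.16), under the floor on both. Both probe sets were higher in the library labelled TET2 KD, but neither gives a level clear of background, and the difference is 0.16 if the probe set marked as shared between transcripts is left out.

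Sin3a, the scaffold of a histone deacetylase complex, had the largest difference of the 8 genes in its brightest probe set. That probe set, 1449343_PM_s_at, read 6.79 in the library labelled control KD and 6.04 in the library labelled TET2 KD, a difference of -0.75 or 1.68-fold lower. A second, 1419101_PM_at, read 2.94 and 2.81 (-0.13), and the remaining 2 stayed below the floor throughout, at 1.77 and 1.61 (-0.17) and at 1.14 and 1.35 (0.21). The difference thus rests on 1 of the 4, marked as shared between transcripts. The others did not show a drop of that size, with 1419101_PM_at near the floor and the remaining 2 under it. The Sin3a difference was -0.13 without that probe set and -0.21 in the mean of all 4. The gap of 0.63 between its 2 probe sets at or above the floor was reached by 9.93% of the 3654 genes with at least 2 such probe sets, whose median gap was 0.17.

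Differences of the size seen for Sin3a were far more often downward across these arrays. Between 1.5-fold and 2-fold, 448 genes were lower in the library labelled TET2 KD and 68 higher, and at sizes of 0.7 to 0.8 on the log2 scale there were 114 lower and 13 higher. At sizes of 0.3 to 0.4 the numbers were equal, 234 and 234. Lower genes were 86.8% of those between 1.5-fold and 2-fold, and still 83.0% after quantile normalization. Of the 448 lower genes, 148 had a further probe set with a mean of at least the floor, and in 8 of them (5.41%) these averaged 1.5-fold or more lower as well. Over the 148 genes the median difference of these further probe sets was 0.0075. Of the 68 higher genes, 17 had such probe sets, which averaged 1.5-fold or more higher in 2 (11.8%), with a median of 0.09. Sin3a is one of the 448. How this excess arose was not tested.

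**Figure D2:**
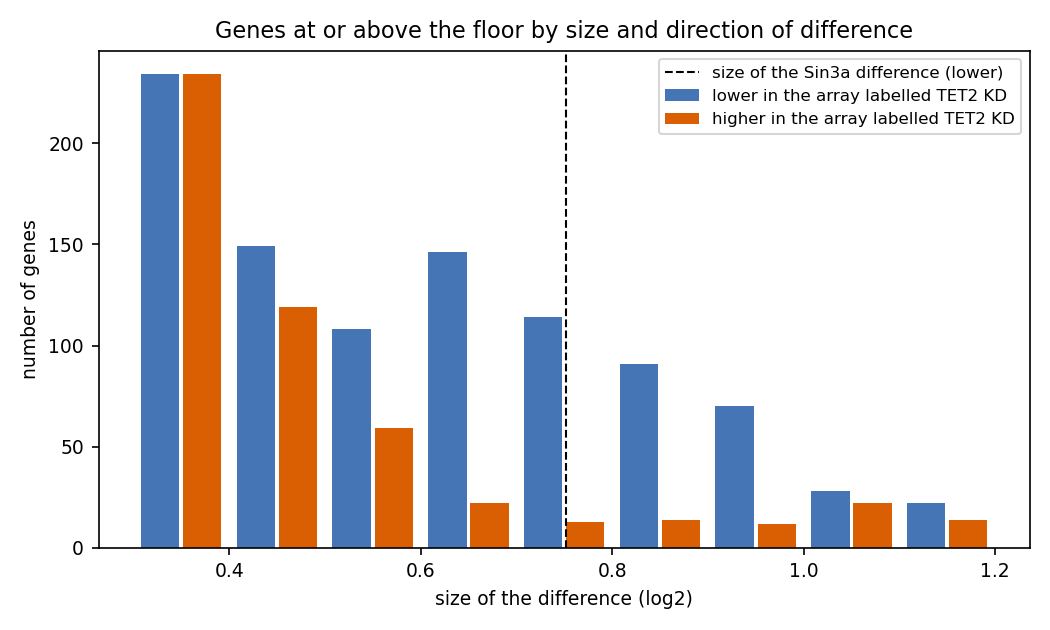
Number of genes at or above the floor (y axis) by size of the log2 difference between the arrays (x axis, steps of 0.1 from 0.3 to 1.2), for genes lower (left bars) and higher (right bars) in the library labelled TET2 KD, with a dashed line at the size of the Sin3a difference. Bars are level at 0.3 to 0.4, with 234 genes each way, and stand at 146 lower against 22 higher at 0.6 to 0.7.

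The enzymes of the hexosamine pathway differed little in their brightest probe sets. Gfpt1, the glutamine transaminase that commits fructose-6-phosphate to the pathway, read 6.999 and 6.93 in 1428715_PM_at, a difference of -0.07. Gfpt2, its paralog, has 1 probe set, 1418753_PM_at, at 6.72 and 6.87 (0.15). The paralogs thus differed in sign but by no more than 0.15 each.

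Gnpnat1, which acetylates glucosamine-6-phosphate, read 4.31 and 4.45 in 1423156_PM_at (0.14). Pgm3, the mutase that moves the phosphate, read 7.46 and 7.76 in 1428228_PM_at (0.31), the highest difference of these 5 enzymes. Uap1, which joins the sugar to UDP and completes the donor, read 6.01 and 6.13 in 1416743_PM_at (0.12). Gnpnat1, Pgm3, Uap1 and Gfpt2 were thus higher and Gfpt1 lower in the library labelled TET2 KD. Differences as large as that of Pgm3 were seen in 13.3% of probe sets with a mean at or above the floor.

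The remaining probe sets of these enzymes are dimmer. Pgm3 has a second, 1435295_PM_at, at 4.71 and 4.79 (0.08), which kept the sign at a smaller size. Gnpnat1 has a second at or above the floor, 1423158_PM_at, at 3.33 and 3.47, whose difference of 0.14 was that of the first to within 0.0017. Both other probe sets of Uap1 were under the floor on both arrays, with differences of 0.07 and 0.28. The Gfpt1 pair 1449268_PM_at and 1444329_PM_at, also under it, differed by -0.04 and -0.02.

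Of all 24 probe sets, 2 were past 2-fold, and neither reached the floor on both arrays. Gnpnat1 1423157_PM_at read 2.79 in the library labelled control KD and 1.56 in the library labelled TET2 KD, a difference of -1.23, but at least 1.18-fold lower against the floor. Among 1222 probe sets with the floor between their values, 11.9% passed 2-fold downward and 6.14% upward. Gfpt1 1418904_PM_at read 2.01 and 0.41 (-1.61), both under the floor, where 0.379% of 21907 probe sets were lower by 2-fold or more, 0.151% were higher, and no level is resolved. The dimmest Gnpnat1 probe set, 1457807_PM_at, read 0.95 and 0.22 (-0.74), under the floor as well. Averaging every probe set brings these in: Gnpnat1 then differed by -0.42, the other sign, and Gfpt1 by -0.43.

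**Figure D3:**
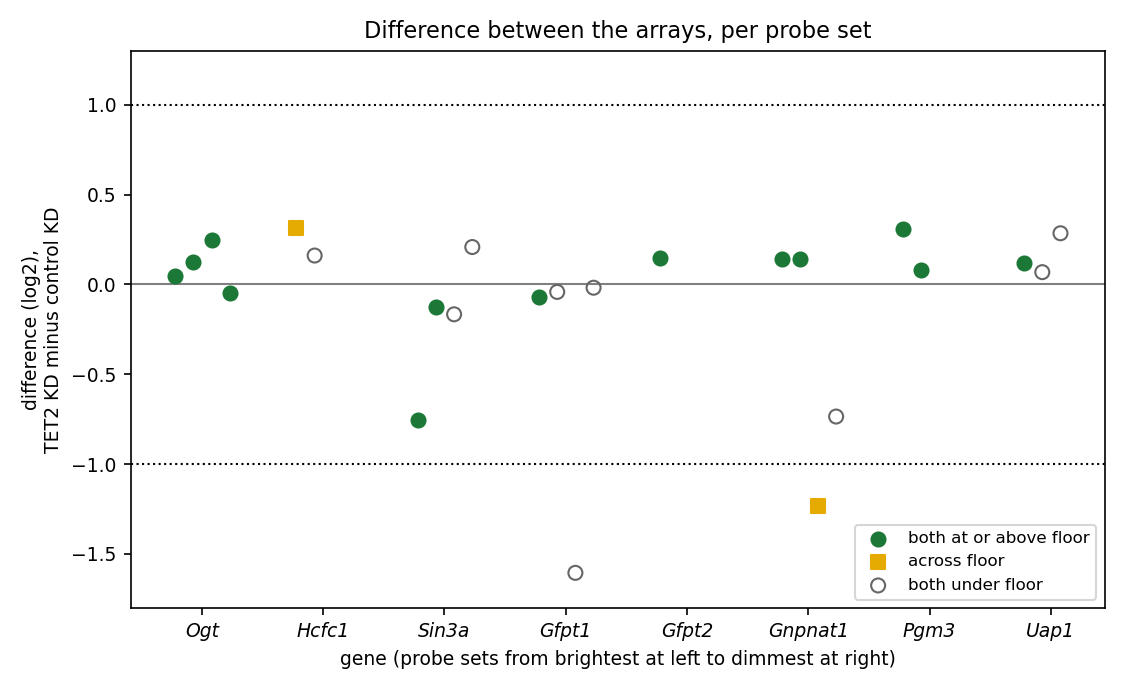
Difference between the arrays (y axis, log2, TET2 KD minus control KD) for each probe set of the 8 genes (x axis, brightest at left within a gene), filled circles where both arrays reach the floor, squares across it and open circles under it on both, with dotted lines at 2-fold. The points beyond 2-fold are 1 square (Gnpnat1, -1.23) and 1 open circle (Gfpt1, -1.61).

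Taking the brightest probe set of each gene, 0 of the 8 genes were past 2-fold in either direction. Over all 11174 genes at or above the floor, 1.17% differed upward by 2-fold or more and 1.41% downward. The median difference of the 8 was 0.13 and that of all genes -0.01, with a robust SD over genes of 0.146. Of the 8, 6 were above 0, beside 47.4% of all genes. Hcfc1, counted among the 6 and in the median, reached the floor by its mean only and was under it in the library labelled control KD. At 1.5-fold, Sin3a was the 1 gene past the threshold, downward, where 5.42% of all genes were lower and 1.78% higher. Among 13 probe sets that reached the floor on both arrays, 9 were higher and 4 lower, and 12 differed by less than 0.35. Of all 21908 such probe sets, 48.4% were higher and 89.9% differed by less than 0.35.

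Agreement between probe sets was partial. Counting probe sets with a mean at or above the floor, Pgm3, Gnpnat1 and Sin3a had 2 each with the same sign, and Ogt had 3 of one sign and 1 of the other. The same sign throughout was seen in 54.2% of 2477 genes with 2 such probe sets and in 23.2% of 272 genes with 4. The span of the Ogt differences, 0.29, equalled the median span of 0.29 for genes with 4. The other 4 genes had 1 such probe set each. Over all probe sets whatever their level, Gnpnat1 had 2 higher and 2 lower, Sin3a 1 higher and 3 lower, and Pgm3 2 higher. Across the whole table, 1892 probe sets shared both values with another, to all decimals given, and 0 of the 24 did.

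Oga, the hydrolase that removes O-GlcNAc, read 6.27 and 6.51 in its brightest probe set, a difference of 0.25. Its next 2 differed by 0.41 and 0.24, and the dimmest, at 3.23 and 3.07, by -0.16. As for Ogt, 3 of 4 probe sets were higher in the library labelled TET2 KD and the dimmest was lower. This gene list and those that follow are read beside the 11174 genes whose mean reached the floor. Of those, 47.4% stood higher, 1.17% passed 2-fold upward and 1.41% downward. At such shares few genes, or none, would pass 2-fold in lists this small. Of 13 genes of O-GlcNAc removal and sugar supply at or above the floor, 7 were higher and 6 lower, with 0 past 2-fold. Their median was 0.0071. The largest differences besides Oga were those of Pgm1, a phosphoglucomutase under the name the annotation uses (6.54 and 5.85, -0.69), and Renbp, the renin binding protein that interconverts N-acetylglucosamine and N-acetylmannosamine (-0.14). The second Pgm1 probe set was under the floor, at 2.37 and 2.30.

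Partners of OGT, HCF1 and the deubiquitinase BAP1 gave 24 genes at or above the floor, with a median of -0.04. Of these, 8 were higher and 16 lower, beside 47.4% higher over all genes, and 0 passed 2-fold. Bap1, which forms a complex with HCF1 and OGT, read 6.80 and 6.78, and its second probe set differed by -0.03. Tet3, which also binds OGT, read 3.15 and 3.36 (0.21). Tet1 was not analysed here, since no probe set carries its symbol alone. The largest differences were those of Ppp1r12a, a myosin phosphatase subunit that binds OGT (6.25 and 5.56, -0.69), the forkhead factor Foxk1 (5.17 and 4.57, -0.60) and Mcrs1, of the NSL acetyltransferase complex (-0.32). The second Ppp1r12a probe set, at 4.81 and 4.86, differed by 0.05, and the second of Foxk1, under the floor, by -0.04.

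In the SET1 and MLL histone methyltransferase complexes, some of which hold HCF1, 4 of 9 genes were higher and 5 lower, 0 past 2-fold, with a median of -0.01. Wdr5, their shared WD-repeat subunit, read 8.002 and 7.39 (-0.61), while its second probe set read 2.20 and 2.71, across the floor and at least 1.12-fold higher against it. Kmt2b, a methyltransferase, differed by -0.30 and Men1, menin, by -0.25. In the SIN3 complex 7 of 17 genes were higher and 10 lower, 0 past 2-fold, with a median of -0.03. Sin3b, the paralog of Sin3a, read 5.95 and 5.53 (-0.41), and its second probe set, under the floor, differed by 0.04. The demethylase Kdm5a (0.20) and Ing2, a reader of methylated histone H3 (-0.17), followed. Of the other Kdm5a probe sets, those at or above the floor differed by -0.04 and -0.20, and the mean of all was -0.0098.

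**Figure D4:**
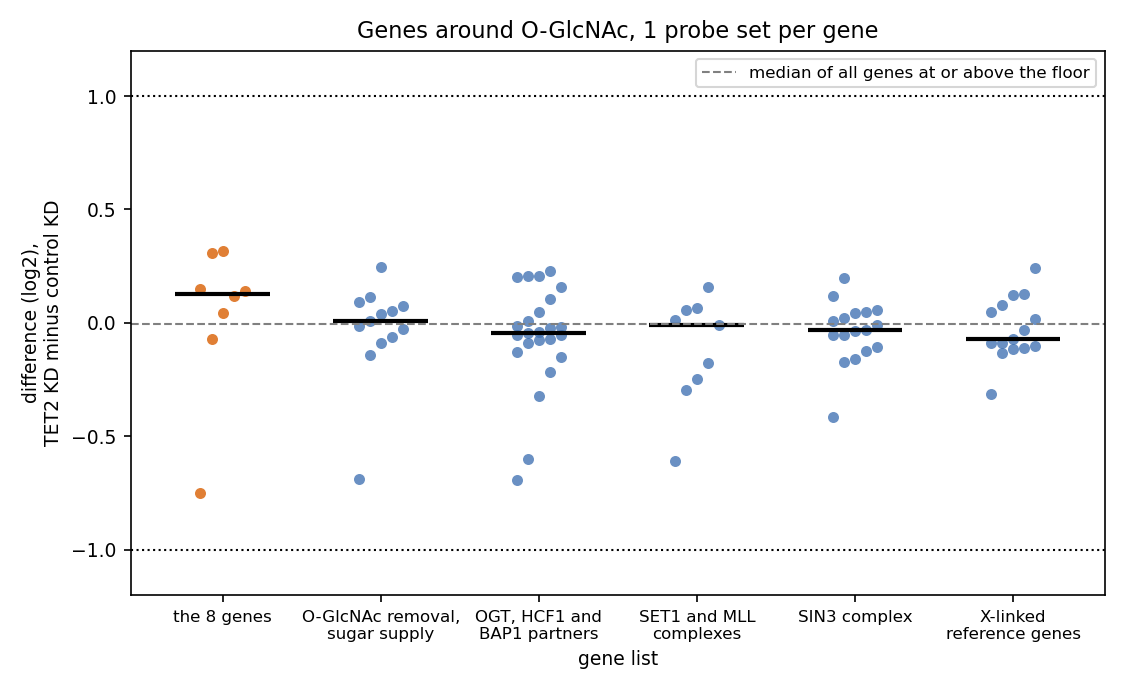
Difference between the arrays (y axis, log2, TET2 KD minus control KD) of the brightest probe set of each gene at or above the floor, as points by gene list (x axis), with a bar at each list's median, a dashed line at the median of all genes (-0.01) and dotted lines at 2-fold. No point passes 2-fold, and Sin3a (-0.75), Pgm1, Ppp1r12a, Foxk1 and Wdr5 stand lowest.

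Across these 4 lists, 67 of 78 genes found a probe set, and 63 were at or above the floor. Of the 63, 26 were higher and 37 lower, 0 were past 2-fold, and the median was -0.02. Among the 11174 genes whose mean reached the floor, 47.4% stood higher, 1.17% passed 2-fold upward and 1.41% downward. With shares so low, a count of 0 does not set these lists apart from other genes. At 1.5-fold 4 of the 63 (6.35%) were lower, Pgm1, Ppp1r12a, Foxk1 and Wdr5, and 0 higher, beside 5.42% and 1.78% of all genes. Of these 4, only Ppp1r12a has a second probe set at or above the floor on both, and it differed by 0.05. The second probe sets of Pgm1 and Foxk1 were under the floor, and that of Wdr5 lay across it.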

How the data were processed

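Total RNA (2 µg per sample, per the labels' protocols) was copied from an oligo(dT) primer, labelled with biotin and read on 2 arrays with perfect-match probes. The authors' deposited table gives 1 signal per probe set. Per the submitters' processing notes the program was Affymetrix Expression Console, whose version, summary method and normalization the sources used here do not give. The deposited values were taken as log2, from their range. Scanner files were not used here, so whether values and names are aligned throughout was not checked.

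Each gene was read from its brightest probe set by the mean over both arrays. A threshold of 2-fold was used, with the floor at the median value of the table, control probe sets left out. List symbols were matched through the annotation and RefSeq gene IDs (GRCm38.p6, names only). Named genes were the 8, Oga, Bap1 and the Tet genes, the 3 of each list with the largest differences among genes that reached the floor on both arrays, and the 3 nearest to Ogt. The count of genes between 1.5-fold and 2-fold was added after the values were seen. Members and lists were chosen with earlier results of these data known. Procedures were tested on simulated data. Python 3.11.15, numpy 2.4.6, pandas 2.3.3 and matplotlib 3.10.9 were used.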

Additional observations from a re-analysis of the deposited data

How the results depend on the processing

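The count of 0 past 2-fold, among the 8 genes and in the wider lists, was the same with each array centred on its median and after quantile normalization. It was also 0 with the floor at the 25th or 75th percentile, in the mean of all probe sets and without probe sets marked as shared. The number of the 8 at or above the floor was 6 with the floor at the 75th percentile. It was 7 in the mean of all probe sets and 7 without shared ones. The 63 genes of the wider lists are those of the main setting. At 1.5-fold the counts were 1 (Sin3a) and 4, all lower. The median of the 8 genes ran from 0.082 (floor at the 75th percentile, 6 genes) to 0.15 (quantile normalization). Same-sign probe sets were found in 3 of 4 genes, and in 1 of 1 with the floor at the 75th percentile, where fewer probe sets remain. Scaling changed no sign among the 8 genes. The mean of all probe sets moved 3 of them (Sin3a, Gfpt1 and Gnpnat1) by over the robust SD and turned the sign of 1, Gnpnat1, and leaving out shared probe sets moved 2 (Sin3a and Hcfc1). Signal near the floor limits Hcfc1 and 9 of the 24 probe sets, which were under it on both arrays. No paired analysis was possible because each group has 1 array.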
